A study of Rattus norvegicus with 4 samples.

Results

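Adipocyte genes were followed in rat footpad skin through a course of fractionated irradiation that models radiation dermatitis, the skin injury of radiotherapy. The animals were Sprague Dawley, an outbred stock, and the hindlimb was treated. The genes were chosen by symbol: Adipoq, Fabp4, Plin1, Lpl, Cfd and Cd36. Of these 6, 4 had a row among the 18957 genes or transcript entries of the tables, namely Adipoq, Fabp4, Lpl and Cfd. Plin1 and Cd36 are not analysed here.

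There was 1 library for each of 4 collection days. By the protocol, irradiations of 10 Gy with 9 MeV electrons at 500 cGy/min fell on days 1, 2, 4 and 5. The day 0 skin therefore came before any irradiation, the day 3 skin after 2 irradiations (20 Gy in all), and the day 6 and day 9 skin after all 4 (40 Gy), 1 and 4 days past the last. The sample descriptions differ from this: that of day 0 names day 1 as its collection, and each later one names a lone irradiation day. Animal, sex and hour of collection are not in the labels. Skin was assayed whole, and expression was read as counts of 21-base tags that begin at a CATG site of the transcript. A day with 1 library has no spread between replicates, so no test was made between days. Every interval given is a 95% interval for counting error only.

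White adipocytes lie under and within the dermis, store triglyceride in a large lipid droplet, and act as an endocrine organ. Lipoprotein lipase, the product of Lpl, frees fatty acids from circulating triglyceride at the vessel wall, and Fabp4 encodes the carrier that moves fatty acids inside the adipocyte. Adipoq encodes adiponectin, a hormone made almost only by adipocytes, and Cfd encodes adipsin, a serine protease of the alternative complement pathway that adipocytes secrete. Fabp4 and Lpl are not restricted to fat: macrophages express both, capillary endothelium expresses Fabp4, and muscle expresses Lpl.

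Nearly all copies of the 4 genes stood in the 6 tags below, which are shown because every value for these genes is a count of these sequences. The capitals mark the CATG site, and sites are numbered from the 3′ end of the transcript.
Adipoq, site 3: CATGagtactcatttgttcat
Adipoq, site 1: CATGgcttctgcgttagttcc
Fabp4, site 1: CATGagccaagggacgaggcc
Lpl, site 2: CATGtgactttgcaaaagcaa
Lpl, site 1: CATGgcagtatatacgtacat
Cfd, site 1: CATGcatctaaaaaaaaaaaa
Adipoq and Lpl were each read through a pair of tags, and Fabp4 and Cfd through nearly 1 tag alone. The tag of Cfd ends in a run of 12 A, so that few of its bases are specific to the transcript. Tags that end in 12 A were listed under 99 genes in all.

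The libraries held 1952921 to 1982608 gene counts, from 3360368 to 3592019 sequenced tags. Levels are given as raw counts and as scaled CPM, counts per 1000000 gene counts of the library after its total is adjusted by the TMM method. They are not per transcript length, so they are compared between days and not between genes. The libraries differed beyond the days. Eif2s3y and Kdm5d, which are Y-linked, had 0 counts in the day 0 library and 92 to 130 and 25 to 36 counts in the later ones, while Ddx3y, also Y-linked, had 1029, 739, 469 and 870 counts on days 0, 3, 6 and 9 and so was highest in the day 0 library. The sex of the animals was not settled by these genes, and irradiation and other differences between the animals cannot be told apart in comparisons with day 0. Comparisons among days 3, 6 and 9 do not use the counts of that library, except through the TMM scaling, which was set over all 4 libraries. No day had a replicate, so in these comparisons too the day cannot be told apart from other differences between the animals or skin pieces. All 12 skeletal muscle markers with a row had 0 counts on day 6.

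Besides Adipoq, the list of markers that define adipocytes held 4 genes with a row. Cidec, which encodes a protein that fuses lipid droplets, had 13, 56, 4 and 14 counts on days 0, 3, 6 and 9. Lipe, the hormone-sensitive lipase, had 31, 51, 39 and 38 counts, and Pparg, the master regulator of fat cell differentiation, had 7, 32, 13 and 10. Lep, which encodes the hormone leptin, had 0, 9, 0 and 2 counts. Each of these 4 had its highest count on day 3, while other genes of the adipocyte program, described after the 4 main genes, did not all do so, and Lep was at 0 on days 0 and 6. The ratio of day 9 over day 3 was 0.789 (0.503 to 1.22) for Lipe and 0.278 (0.0246 to 1.13) for Lep. Both of these intervals include 1, while those of Cidec and Pparg lay below 1.

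Adipoq varied most of the 4 genes over the days. It had 41, 448, 35 and 165 counts on days 0, 3, 6 and 9, or 20.5 (14.7 to 27.8), 222 (202 to 244), 18 (12.5 to 25) and 86.4 (73.7 to 101) scaled CPM. Day 3 was highest and day 9 next, with intervals apart from every other day, while those of days 0 and 6 overlapped. Adipoq stood 10.8-fold (7.89 to 15.4) higher on day 3 than on day 0, and 12.2-fold (8.76 to 18) lower on day 6 than on day 3. It was 4.75-fold (3.32 to 7.14) higher on day 9 than on day 6, but still 2.57-fold (2.15 to 3.1) lower than on day 3.

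Fabp4 did not return to its first level. It had 132, 516, 302 and 470 counts, or 65.9 (55.1 to 78.1), 256 (235 to 279), 155 (138 to 174) and 246 (224 to 269) scaled CPM. Days 3 and 9 overlapped at the top, with a ratio of day 9 over day 3 of 0.961 (0.846 to 1.09), day 6 lay between, and day 0 was lowest. The gene was 3.88-fold (3.21 to 4.75) higher on day 3, 2.35-fold (1.91 to 2.91) higher on day 6 and 3.73-fold (3.07 to 4.57) higher on day 9 than on day 0.

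Lpl followed the order of Adipoq over a smaller range. Its counts were 65, 146, 50 and 87, or 32.4 (25 to 41.3), 72.5 (61.2 to 85.3), 25.7 (19.1 to 33.9) and 45.6 (36.5 to 56.2) scaled CPM. Day 3 stood above the other 3 days, whereas the interval of day 0 overlapped with those of days 6 and 9. The ratio of day 3 over day 0 was 2.23 (1.66 to 3.04), that of day 9 over day 0 was 1.4 (1.01 to 1.97), and day 6 was 2.8-fold (2.03 to 3.97) lower than day 3.

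Cfd moved least. It had 129, 233, 134 and 173 counts, or 64.4 (53.7 to 76.5), 116 (101 to 132), 68.8 (57.7 to 81.5) and 90.6 (77.6 to 105) scaled CPM. From the highest level the days ran 3, 9, 6, 0, and the interval of each day overlapped with that of the next. Its ratio to day 0 was 1.79 (1.44 to 2.25) on day 3, 1.07 (0.833 to 1.37) on day 6 and 1.41 (1.11 to 1.78) on day 9.

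**Figure D1:**
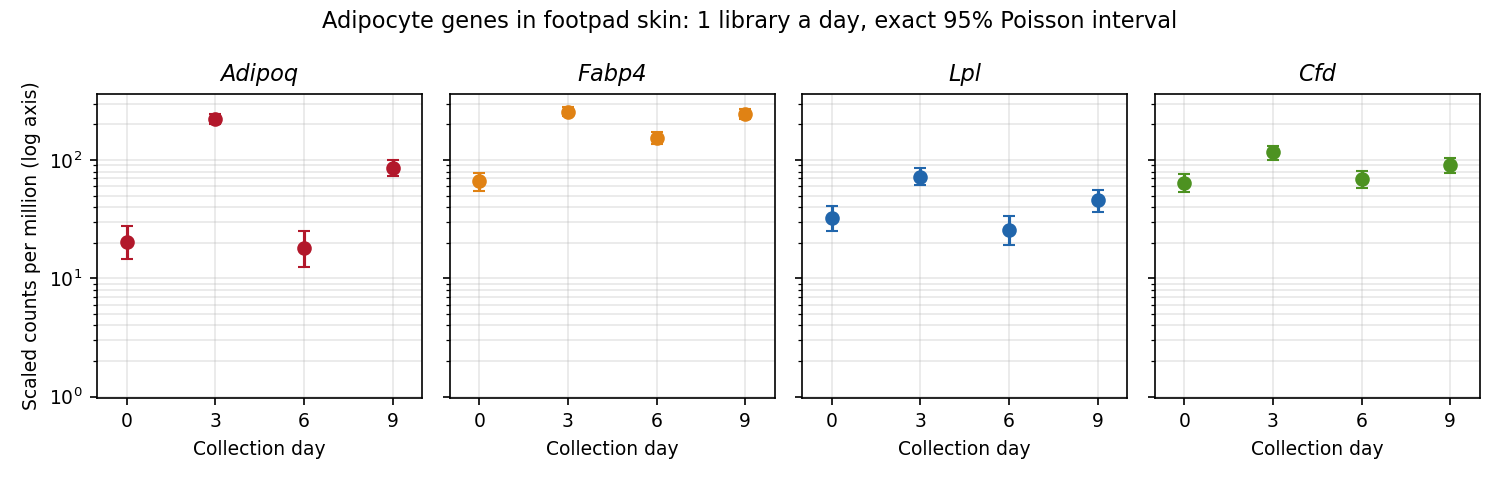
Scaled CPM (log axis) of Adipoq, Fabp4, Lpl and Cfd on collection days 0, 3, 6 and 9, as 1 point per library with its exact 95% Poisson interval. All 4 genes are highest on day 3, and Fabp4 alone stays clear of its day 0 interval on day 6.

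A gene was called higher or lower between a pair of libraries by size alone: 2-fold or more apart, with 50 or more counts on the day with more, and with 1 outside the interval of the ratio. Comparisons with day 0 share that library, as those with days 3 and 6 share theirs. Fewer adipocytes in a piece of skin and less of the RNA in each cell cannot be told apart in whole tissue.

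Between day 3 and day 0, 3 of the 4 genes were called higher (Adipoq, Fabp4 and Lpl) and none lower. Over all 5342 genes with enough counts, 8.54% were called higher and 7.88% lower. Adipoq ranked 15th from the highest ratio among those genes, Fabp4 84th, Lpl 345th and Cfd 584th. The day 3 skin thus held more counts of each of the 4 genes, with Cfd short of the 2-fold rule. The call of Lpl was lost at 3-fold, with a floor of 200 counts and by its most abundant tag alone.

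Between day 6 and day 0, of the 3 genes with enough counts Fabp4 alone was called higher and none was called lower, where 7.48% of 5296 genes were called higher and 13.1% lower. Adipoq, at 35 counts on day 6 and 41 on day 0, had too few for the rule, and its ratio was 0.881 (0.543 to 1.41). Lpl had a ratio of 0.794 (0.537 to 1.16). Their intervals, like that of Cfd, include 1 and do not show that the levels were alike.

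Between day 9 and day 0, Adipoq and Fabp4 were called higher and none of the 4 lower, against 10.7% of 5345 genes called higher and 10.4% lower. Adipoq was 4.19-fold (2.98 to 6.1) higher. Both ranked near the top, Adipoq 103rd and Fabp4 125th, with Cfd 1368th and Lpl 1379th.

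The later days also differed from one another. Between day 6 and day 3, Adipoq and Lpl were called lower and none of the 4 higher, where 6.74% of 5101 genes were lower and 9.63% were called either way. Fabp4 was 1.65-fold (1.43 to 1.91) lower and Cfd 1.68-fold (1.35 to 2.09) lower, short of the rule. Between day 9 and day 6, Adipoq was called higher and none of the 4 lower, where 10.0% of 5127 genes were higher and 4.37% lower. The ratios of the other 3 were 1.59 (1.37 to 1.84) for Fabp4, 1.77 (1.24 to 2.56) for Lpl and 1.32 (1.04 to 1.66) for Cfd, each with an interval above 1. Between day 9 and day 3, Adipoq was the 1 gene called lower, where 4.59% of 5165 genes were lower, and none of the 4 was called higher, where 6.41% were.

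**Figure D2:**
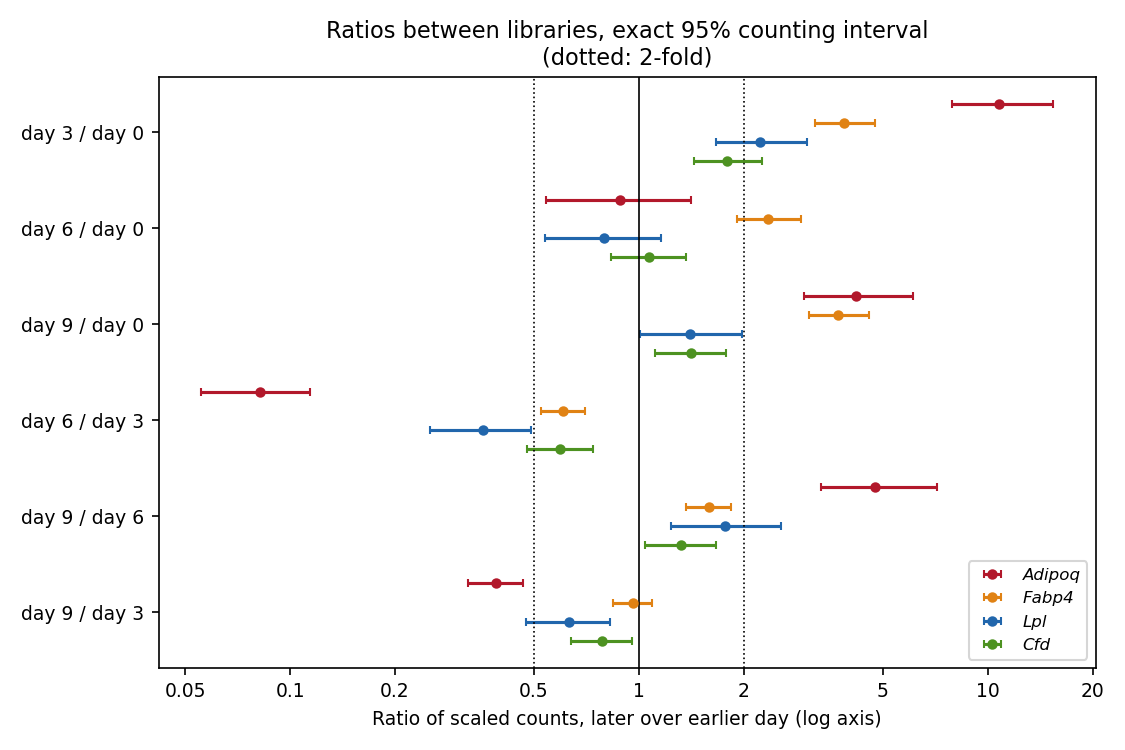
Ratios of scaled counts, later over earlier day (log axis), of the 4 adipocyte genes in 6 comparisons, with exact 95% counting intervals and dotted lines at 2-fold either way. Adipoq has a ratio of 10.8 for day 3 over day 0, 0.0819 for day 6 over day 3 and 4.75 for day 9 over day 6, and Cfd stays within 2-fold in all 6.

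The genes did not keep a fixed proportion. Taken within a library, where scaling plays no part, Adipoq made up 23.7% (17.6 to 30.7), 46.5% (43.3 to 49.7), 10.4% (7.34 to 14.1) and 26% (22.6 to 29.6) of the summed counts of Adipoq and Fabp4 on days 0, 3, 6 and 9. The share was highest on day 3 and lowest on day 6, and the exact binomial intervals of those days overlapped with no other. Lpl made up 33.5% (26.9 to 40.6), 38.5% (33.6 to 43.6), 27.2% (20.9 to 34.2) and 33.5% (27.8 to 39.6) of the summed counts of Lpl and Cfd. Here the intervals of all 4 days overlapped. Adipoq was 24.1% (17.9 to 31.3), 65.8% (62.1 to 69.3), 20.7% (14.9 to 27.6) and 48.8% (43.4 to 54.3) of its sum with Cfd.

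The separate tags of a gene were counted apart from each other in the same library. The site 3 tag of Adipoq had 17, 253, 26 and 89 copies, and its site 1 tag had 24, 185, 9 and 69. Both tags were highest on day 3, at 14.4-fold (9.07 to 25.8) and 7.53-fold (5 to 12.3) above day 0, and both were next highest on day 9. They differed between day 6 and day 0, where the site 3 tag had a ratio of 1.56 (0.822 to 3.09) and the site 1 tag was 2.51-fold (1.16 to 6.33) lower. The site 3 tag held 41.5% (26.3 to 57.9) of the Adipoq counts on day 0, 56.5% (51.7 to 61.1) on day 3, 74.3% (56.7 to 87.5) on day 6 and 53.9% (46 to 61.7) on day 9.

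The site 2 tag of Lpl had 40, 61, 21 and 50 copies, and the site 1 tag had 22, 78, 27 and 35. On day 3 over day 0 the site 1 tag had a ratio of 3.47 (2.17 to 5.95) and the site 2 tag 1.51 (1 to 2.32), so the site 2 tag alone was short of the 2-fold rule by which Lpl was called higher. Both tags had a ratio of 0.362 on day 6 over day 3, with intervals of 0.206 to 0.593 at site 2 and 0.222 to 0.561 at site 1. Tags 1 base away from those of Adipoq, Fabp4 and Lpl had at most 13 copies in any library. Around the Cfd tag they had 42, 48, 46 and 34 copies on days 0, 3, 6 and 9, which is 20.1 to 35.7% of the copies of that tag.

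**Figure D3:**
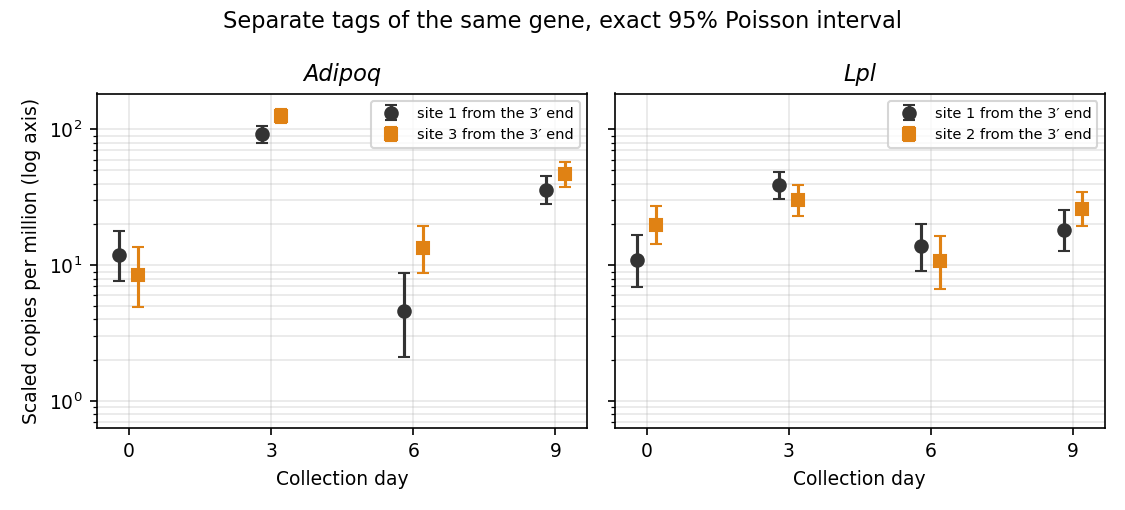
Scaled copies in CPM (log axis) of the separate tags of Adipoq and Lpl by collection day, with exact 95% Poisson intervals; sites count from the 3′ end of the transcript. Both Adipoq tags peak on day 3, and on day 6 they stand at 26 copies for site 3 and 9 for site 1.

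The other genes of the adipocyte program were taken from 6 lists by role, with 92 genes listed and 77 with a row. Between day 3 and day 0, 6 of the 39 with enough counts were called higher (15.4%, against 8.54% of all genes) and 2 lower (5.13%, against 7.88%). Their median log2 ratio was 0.26, against -0.01 over all 9876 genes with a mean of at least 10 counts, and it was 0.07 among genes with a mean of at least 50. Between day 6 and day 0, 0 of 34 were higher and 7 lower (20.6%, against 13.1% of all genes), with a median of -0.11 against 0.03. Between day 9 and day 0, 5 of 35 were higher and 4 lower (14.3% and 11.4%, against 10.7% and 10.4%), with a median of 0.03 against 0.00, which turned to -0.17 among genes with a mean of at least 50 counts. The shares on day 9 lay near those of all genes. Between day 6 and day 3, 0 of 38 were higher and 9 lower (23.7%, against 6.74% of all genes). Between day 9 and day 6, 7 of 35 were higher and 1 lower (20% and 2.86%, against 10.0% and 4.37%). Between day 9 and day 3, 2 of 41 were higher and 8 lower (4.88% and 19.5%, against 6.41% and 4.59%). With library totals in place of TMM, 0 were higher and 9 lower. The medians of these comparisons were -0.36, 0.26 and -0.24, against 0.02, 0.00 and -0.01 over all genes.

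Among hormones and their receptors, Retn and Rbp4 were called higher on day 3 than on day 0, as was the droplet gene Cidec. Their most abundant tags are shown because each had its highest count on day 3, like both tags of Adipoq, and the capitals again mark the CATG site.
Retn, site 1: CATGccctgcagaggagggat
Rbp4, site 1: CATGggaatgcctgaatccat
Cidec, site 1: CATGatctccagggaaagtca
Retn, which encodes the adipocyte hormone resistin in rodents, had 6, 79, 2 and 32 counts and was 12.2-fold (5.76 to 36.8) higher on day 3 than on day 0 and 30.7-fold (10.2 to 321) lower on day 6 than on day 3. Rbp4, the retinol carrier that fat secretes, had 54, 247, 71 and 201 counts and was 4.52-fold (3.38 to 6.23) higher on day 3 and 3.88-fold (2.88 to 5.38) higher on day 9 than on day 0. On day 6 over day 0 the ratio was 0.396 (0.0339 to 1.92) for Retn, 1.35 (0.937 to 1.97) for Rbp4 and 0.343 (0.0752 to 1.03) for Cidec, and none was called. Adipor2, a receptor for adiponectin, went the other way with 179, 75, 76 and 106 counts, 2.39-fold (1.82 to 3.18) lower on day 3 than on day 0. On day 3 against day 0, of the 7 hormone and receptor genes with enough counts 2 were higher (28.6%, against 8.54% of all genes). Another 1 was lower (14.3%, against 7.88%). The median log2 ratio over 10 genes of this list was 1.36, or 1.09 with counts of 0 set to 3, against -0.01 over all genes. The list also holds the complement genes Cfb and Cfp, whose log2 ratios of 2.15 and 2.02 lay above that median. Of the 10 genes, 9 were above 0. Some were short of the count floor: Apln had 0 and 8 counts, Cfb 9 and 42, and Cfp 6 and 26 on days 0 and 3.

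Among lipid droplet and lipolysis genes, 1 of 9 was higher and 1 lower on day 3 against day 0, or 11.1% each way, near the 8.54% and 7.88% of all genes. Cidec was the higher one, at 4.16-fold (2.31 to 8.54), and was 12.1-fold (5 to 51.4) lower on day 6 than on day 3. Bscl2, the seipin gene of lipid droplet assembly, had 132, 42, 19 and 80 counts and was 3.13-fold (2.22 to 4.58) lower on day 3 and 6.6-fold (4.15 to 11.6) lower on day 6 than on day 0. Cidea, a relative of Cidec that is also active in sebaceous and brown fat cells, had 78, 83, 29 and 28 counts and was 2.58-fold (1.69 to 4.15) lower on day 6 and 2.62-fold (1.7 to 4.25) lower on day 9 than on day 0. Prkar2b, a regulatory subunit of protein kinase A, was 2.64-fold (1.57 to 4.74) higher on day 9. Plin2, which coats droplets in many cell types, was 2.99-fold (2.43 to 3.71) lower on day 6 than on day 3.

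Among triglyceride synthesis genes, the row named Scd1, a stearoyl-CoA desaturase, had 78, 231, 28 and 103 counts. It was 2.93-fold (2.27 to 3.86) higher on day 3 and 2.68-fold (1.74 to 4.33) lower on day 6 than on day 0, and its close relative in the row named Scd had 701, 606, 769 and 579 counts. No tag was listed under more than 1 gene in any library, so no copies were split between these rows. Whether a tag that fits both genes was given to 1 of them was not tested. Fasn, the fatty acid synthase, was 2.15-fold (1.72 to 2.72) lower on day 9 than on day 0, and Acaca, the acetyl-CoA carboxylase that supplies it, was 2.13-fold (1.46 to 3.22) lower. Of 8 genes with enough counts, 1 was higher on day 3 (12.5%, against 8.54% of all genes), 1 was lower on day 6 (12.5%, against 13.1%) and 2 were lower on day 9 (25%, against 10.4%) than on day 0. With 8 genes, 1 call is near the share over all genes.

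Genes of fatty acid uptake and handling gave 0 calls among 6 on day 3 against day 0. Of all genes, 8.54% were called higher and 7.88% lower, so 0 calls of 6 is near those shares. Acsl1, which activates fatty acids, was 2.23-fold (1.78 to 2.83) lower on day 6, and the transporter gene Slc27a1 was 2.18-fold (1.7 to 2.81) lower on day 9, both against day 0. They were 1 of 6 genes with enough counts on day 6 (16.7%, against 13.1% of all genes lower) and 1 of 5 on day 9 (20%, against 10.4%). Among transcription factors Cebpd, an early factor of fat cell differentiation that also answers to inflammation, was the 1 call of 3 with enough counts. It was 3.8-fold (3.24 to 4.5) higher on day 9 than on day 0, with 188, 355, 239 and 682 counts. The 1 call of 3 is 33.3%, against 10.7% of all genes higher on day 9, and 3 genes are too few to compare shares. Pparg reached 4.31-fold (1.97 to 12.2) on day 3 with 32 counts against 7, too few for the rule.

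Of the remaining list, Car3 and Slc2a4 are abundant in fat and in muscle. Car3, the carbonic anhydrase of both tissues, had 4534, 8149, 251 and 9758 counts and was 17.5-fold (15.4 to 20) lower on day 6 and 2.26-fold (2.18 to 2.34) higher on day 9 than on day 0. Slc2a4, the insulin-responsive glucose transporter, had 175, 148, 34 and 162 counts and was 4.94-fold (3.45 to 7.45) lower on day 6 than on day 0. On day 6 the muscle markers were at 0, and the part of muscle in these values was not tested. Tusc5, a regulator of that transporter in adipocytes, was 2.21-fold (1.42 to 3.58) higher on day 3, and Cyp4b1, a cytochrome P450, was 2.63-fold (1.64 to 4.47) higher on day 9 than on day 0.

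**Figure D4:**
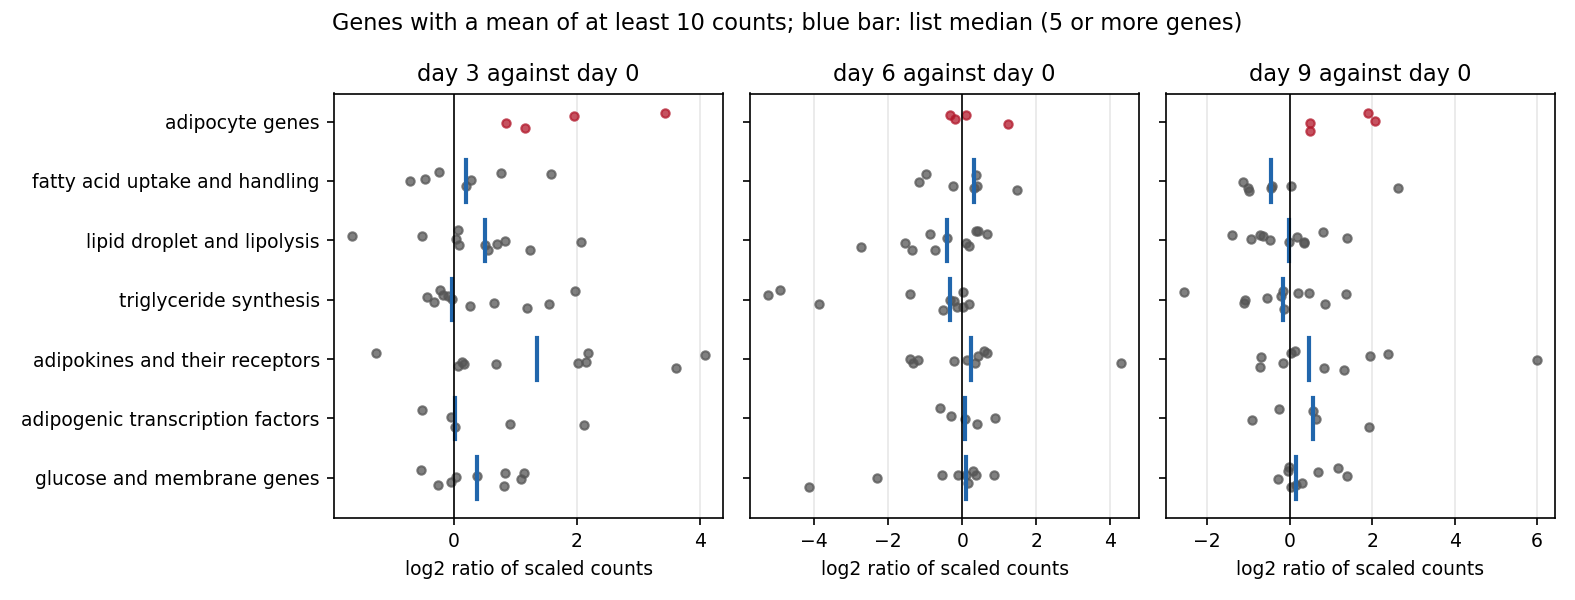
Log2 ratios of scaled counts against day 0 on days 3, 6 and 9, with 1 point for each gene of at least 10 mean counts in the adipocyte genes and in 6 role lists, and a blue bar at the list median; genes at 0 in a library are placed by a prior count of 0.5. The hormone and receptor list, which also holds the complement genes Cfb and Cfp, has the highest median on day 3, at 1.36, while the transcription factor list stands at 0.02.

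Marker lists of other tissues were set beside the adipocyte genes. Summed over the 4 genes, scaled CPM were 183, 667, 268 and 469 on days 0, 3, 6 and 9. The 12 skeletal muscle markers with a row summed to 2594, 5488, 0 and 5249, above day 0 on days 3 and 9 like the adipocyte sum but not on day 6, with 6 of the 10 with enough counts called higher than day 0 on each, against 8.54% and 10.7% of all genes. The most abundant of them, Myl1 and Myh2, had 2021, 5394, 0 and 4705 counts and 982, 2139, 0 and 1613 counts. Among 3 red blood cell markers, which summed to 17.5, 759, 53.4 and 313, Hbb, a beta-globin gene, had 35, 1510, 104 and 579 counts and Alas2, of heme synthesis, had 0, 19, 0 and 16. Hbb, like Adipoq, was highest on day 3 and next highest on day 9, and it was 3.03-fold (2.07 to 4.62) higher on day 6 than on day 0.

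Summed markers of macrophages and of endothelium were above day 0 on each later day. The 12 macrophage markers with a row summed to 406, 1010, 714 and 700, and 5 of 8, 2 of 7 and 3 of 7 with enough counts were called higher on days 3, 6 and 9 than on day 0, against 8.54%, 7.48% and 10.7% of all genes. C1qa and Csf1r were the most abundant, at 214, 452, 384 and 360 counts and 175, 327, 319 and 223 counts. Itgam had counts on day 6 alone, and C1qc was at 0 on day 9. The 11 endothelial markers summed to 439, 654, 828 and 590, with 0 of 7, 2 of 7 and 1 of 6 called higher and Cdh5 at 0 on 3 of the days. Plvap had 365, 659, 770 and 543 counts and Tie1 had 165, 207, 237 and 149. Dermal matrix markers summed to 11333, 52558, 40403 and 37740, with 8, 5 and 6 of the 9 with enough counts called higher and Sparc and Dcn the most abundant. Keratinocyte markers, led by Krt1 and Dsp, summed to 26779, 21451, 34558 and 24887. Against day 0, of 6 with enough counts 3 were called lower on day 3 (Krt14, Krt10 and Krt2), 0 on day 6 and 2 on day 9 (Krt10 and Krt2). Of all genes, 7.88%, 13.1% and 10.4% were lower. None of the 6 was called higher on these days. The part of these tissues in the values of the adipocyte genes was not tested.

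**Figure D5:**
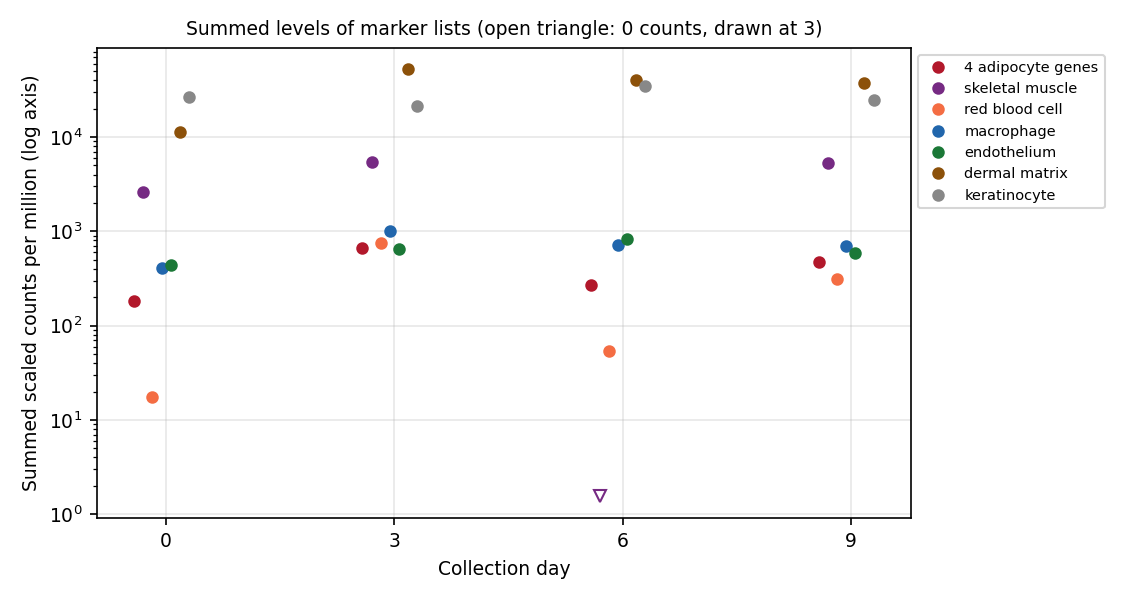
Summed scaled CPM (log axis) of the 4 adipocyte genes and of marker lists for other tissues by collection day, 1 library each; the open triangle is a sum of 0 counts drawn at 3 counts. The adipocyte sum runs 183, 667, 268 and 469, and the muscle sum is 2594, 5488, 0 and 5249.

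Profiles closest to Adipoq were sought among 3849 genes with an established symbol and a mean of at least 50 counts. Retn and Cidec, with fewer counts, were not among them. Closeness was the Euclidean distance between centred log2 scaled counts over the 4 libraries. The nearest were Pkia (1.15), Ms4a4a (1.35), Rbp4 (1.35), Scd1 (1.43) and Gpx7 (1.53), all of them nearer than Lpl (1.92), Fabp4 (2.05) or Cfd (2.34). Pkia had 57, 252, 47 and 250 counts, so it was as high on day 9 as on day 3, where Adipoq was not. Nearest to the mean profile of the 4 genes were Mtfr1l (0.36), Ms4a4a (0.39), Gyg1 (0.43), Dpep1 (0.49) and Lum (0.50). The 4 genes themselves lay 0.59 (Lpl), 0.84 (Fabp4), 0.84 (Cfd) and 1.52 (Adipoq) from that mean, and with 4 libraries many genes share such a profile.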

How the data were processed

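Whole footpad skin was read as 21-base tags in 1 library for each collection day. A gene's count is, per the file headers, the total copies of its mapped tags, and tags under 2 copies were absent from the deposited tables. The authors' column headed TPM was found to hold CPM, scaled to the tags with 2 or more copies and not to length, and served as an alternative scaling. The deposited tag lists, other than counts, held 1 sequence a line and gave the copies of neighbouring tags. Rnor_6.0 was the build, per the submitters' processing notes, and the aligner is not given in the sources used here.

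Counts were scaled with TMM factors (edgeR 4.0.16, factors 1.01, 1.02, 0.989 and 0.978). Ratios used a prior count of 0.5 and exact Clopper-Pearson intervals at the 95% level. PCR copies are not independent molecules, so intervals cover counting error only. No count model was fitted, since 1 library a day leaves no spread to estimate. The call procedure was tested on simulated data for day 3 against day 0 alone. These were drawn with counting error only, so the test does not cover spread between animals or PCR copies. The 4 genes were always named, with at most 4 genes of each role list past the rule against day 0, furthest first, the 5 nearest profiles and the top pair of each marker list described, while 1 further list is not reported here. Pparg, Lipe, Lep, Plin2, the row Scd, Hbb, Itgam, C1qc, Cdh5 and the Y-linked genes were named outside that rule. The genes and lists were chosen with earlier results of these data known. Alternatives covered scaling (also DESeq2 1.42.0 size factors), count floor, fold, prior count and tags.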

Additional observations from a re-analysis of the deposited data

Results flagged for a closer look

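Tags 1 base away from a main tag, outside the row of its gene, exceeded the 3 copies that a count of 0 allows for 3 of the 6 main tags, in tag lists that no comparison used. For the Cfd tag they had 35, 41, 42 and 30 copies on days 0, 3, 6 and 9, with at most 30 for any 1 sequence. For the site 3 tag of Adipoq they reached 5 copies on day 3, and for the Fabp4 tag 6 copies on day 3.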

How the results depend on the processing

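No paired analysis was possible because each day had 1 library. The ratios of the 4 adipocyte genes stayed within their main counting intervals in 117 of 120 alternative values. Most of these values changed only the scaling or the prior count, which could move a ratio little. The choice of tag could matter for Adipoq and Lpl alone, since Fabp4 and Cfd were read through nearly 1 tag. All 3 values outside the intervals came from that choice. With the most abundant tag alone, the ratio of Lpl was 1.51 on day 3 over day 0 and 0.866 on day 9 over day 3, and that of Adipoq was 1.56 on day 6 over day 0, against 0.881 with all tags. No scaling changed how many of the 4 genes were called, including scaling over the 3 libraries other than day 6, which was chosen after seeing the data. Other rules did. For the 4 genes, day 3 over day 0 gave 2 calls with a floor of 200 counts, at 3-fold and by the most abundant tag, and 4 at 1.5-fold. Day 6 over day 0 gave 0 calls at 3-fold, and day 9 over day 0 gave 1 with a floor of 200 counts. Day 6 over day 3 gave 1 with that floor, 4 at 1.5-fold and 1 at 3-fold. Day 9 over day 6 gave 0 with that floor, 3 at 1.5-fold and 2 by the most abundant tag, and day 9 over day 3 gave 2 at 1.5-fold and 0 at 3-fold. For the other adipocyte genes, calls with no floor, a floor of 200, 1.5-fold and 3-fold were 20, 3, 15 and 4 on day 3 over day 0. The shares called over all genes at these settings were 11.8%, 16.3%, 37.9% and 4.70%. On day 6 over day 0 the calls were 15, 2, 12 and 3, against 14.4%, 19.4%, 40.4% and 9.04% of all genes. On day 9 over day 0 they were 17, 5, 18 and 2, against 13.9%, 21.1%, 42.8% and 6.81%. By the most abundant tag alone, 7 of the 9 main calls there were kept. The calls at the same settings were 16, 3, 15 and 4 on day 9 over day 6, against 11.1%, 13.8%, 32.9% and 5.60%. On day 9 over day 3 they were 19, 5, 16 and 2, against 8.95%, 11.3%, 28.6% and 2.90%. There, scaling by library totals or by the authors' normalized value gave 0 higher and 9 lower, against 2 and 8. For day 6 over day 3 the calls were 22 with no floor and 4 with a floor of 200, against 8.71% and 9.02%. With no floor these are calls of 77 genes. At 1.5-fold and 3-fold they are calls of 39, 34, 35, 35 and 41 genes in the order given. At 1.5-fold, 15 of 39 on day 3 over day 0 was near the share over all genes. There, 12 of 34 on day 6 over day 0 was not above it, and those of day 9 were. The number with enough counts at a floor of 200 was not taken. The median log2 ratio of the other adipocyte genes on day 9 over day 0 was -0.17 with a mean of at least 50 counts, against 0.03. The cause was not tested. With that minimum the medians were 0.07 on day 3 over day 0 and 0.02 on day 9 over day 6. By the authors' normalized value they were 0.37 on day 3 over day 0, -0.50 on day 6 over day 3 and -0.35 on day 9 over day 3. That value moved the median of all genes to 0.10, -0.12 and -0.12 in these comparisons. Of all calls, 62.7%, 17.6% and 44.7% were then higher, against 52.0%, 29.9% and 58.3% with TMM. Depth limited Adipoq on days 0 and 6, where it had 41 and 35 counts.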
